A study of Danio rerio with 6 samples.

Results

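The genes described here make, carry and break down catecholamines (dopamine, noradrenaline and adrenaline) and serotonin. They are 9 zebrafish genes: th, ddc, dbh, pnmt, tph1a, tph1b, slc6a2, slc18a2 and mao. They matched 9 of the 32057 rows of the count table, of which 8 passed the filter on low counts and pnmt did not. The list was chosen by what earlier work on these same counts had found between transgenic and WT fish, so the levels of its members in the 2 genotypes are given as a description and without p-values.

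The samples were whole kidney marrow (WKM) cells, from the organ that forms blood in adult zebrafish, of WT fish of the AB strain and of the transgenic line Tg(drl:hoxa9;hsp70:meis1), called Tg in what follows. There were 3 pools of each genotype, each made from 3 kidneys. In Tg, the draculin (drl) element drives hoxa9 in blood cells, and a heat shock promoter that works in all tissues drives meis1. The fish were 5 months old by the labels and the methods and 3 months old by the text of the study's results, and the heat shock schedule of the sequenced fish is not given with the RNA samples. The cells were taken from kidneys with no sort stated, so nephron cells and cells of neighbouring tissue could be carried along.

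Library totals were 53620374 to 64888212 counts in WT and 50767535 to 64055374 in Tg. A library with no count for a gene still allows up to 0.0457 to 0.0606 CPM (counts scaled to the library total), the level of 3 counts, and this limit covers counting error only. The row of hoxa9a was at 0 to 0.96 CPM in WT and 64.5 to 101 CPM in Tg. The MEIS1 row with the higher counts was at 21.4 to 26.7 CPM in WT and 52.5 to 77.2 CPM in Tg. Both rows can hold reads of the transgenes.

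Catecholamines are made from tyrosine. Tyrosine hydroxylase (th) forms L-DOPA, aromatic L-amino acid decarboxylase (ddc) turns it into dopamine, dopamine beta-hydroxylase (dbh) makes noradrenaline and pnmt methylates that to adrenaline. Serotonin is made from tryptophan by a tryptophan hydroxylase (tph1a, tph1b) and then by the same ddc. The noradrenaline transporter slc6a2 takes the released amine back up, slc18a2 loads amines into vesicles, and monoamine oxidase (mao) breaks them down. In teleosts the chromaffin cells, which hold th and dbh, lie in the head kidney among the steroid-making interrenal cells and the blood-forming tissue. In mammals, DDC and monoamine oxidase are also known from the proximal tubule, where DDC makes dopamine from filtered L-DOPA.

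Among the members, ddc, mao and slc6a2 were called lower in Tg, and no member was called higher. A call here needed a false discovery rate (FDR) under 0.05 over all genes tested in edgeR's quasi-likelihood test and a fold change of at least 2. That is 3 of 8 tested rows, against 0.363% of the 20123 tested genes called lower and 0.199% called higher. Since this contrast chose the members, nothing is read from their share. In the same 3 rows every WT pool lay above every Tg pool, against 14.1% of all tested genes, and in 0 rows every Tg pool lay above every WT pool, against 14%. The median log2 fold change of all tested genes was 0.01. DESeq2, the tool of the study, called the same 3 members lower, against 5.03% of 22328 genes called lower and 1.25% called higher.

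**Figure D1:**
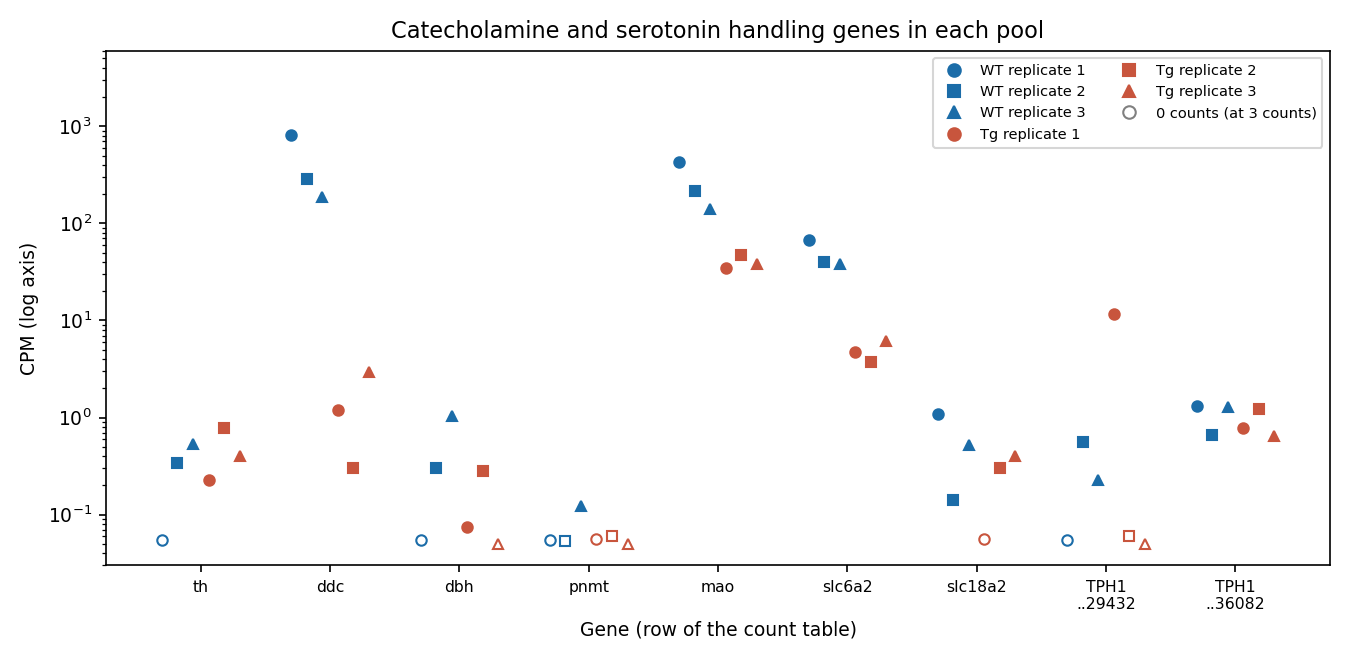
Level of each member row in the 3 WT and 3 Tg pools, in CPM on a log axis, with 1 symbol per pool (WT blue, Tg red). Open symbols are pools with no count, drawn at the level of 3 counts. The pools separate by genotype in the rows of ddc, mao and slc6a2, and th, dbh, slc18a2 and pnmt stay at or under 1.09 CPM in every pool.

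Of the genes of synthesis, ddc was high in WT and near the foot of the scale in Tg. Its level was 815, 287 and 187 CPM in WT replicates 1, 2 and 3, and 1.2, 0.303 and 2.97 CPM in Tg replicates 1, 2 and 3. The groups did not overlap, and the WT pools themselves spread over a wide range, with replicate 1 the highest. The means were 430 ± 337 CPM in WT and 1.49 ± 1.36 CPM in Tg (SD, n = 3 each). The log2 fold change was -8.16 with a standard error (SE) of 1.04, a called difference, and ddc took place 54 from the lowest among the 20123 tested genes. Without WT replicate 1 the log2 fold change was -7.30 and ddc was still called. When any other pool was left out, ddc was not called.

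The enzyme before ddc, th, was scarce in every pool. It had 0, 19 and 35 counts in the WT pools and 12, 39 and 24 counts in the Tg pools, which is at most 0.533 CPM in WT and at most 0.788 CPM in Tg. The groups overlapped, and the log2 fold change of 0.68 (SE 1.43) was not called. The enzyme after ddc, dbh, was at 0, 0.305 and 1.04 CPM in the WT pools and 0.0749, 0.283 and 0 CPM in Tg, again with overlap (log2 fold change -1.90, SE 1.93, not called). pnmt had 8 counts in all, every one in WT replicate 3, and was not tested. In WT replicate 1, where ddc was at its highest, neither th nor dbh had a single count.

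The 2 rows named TPH1 stand for the tryptophan hydroxylases tph1a and tph1b, and the names used here do not tell which row is which. Row ENSDARG00000036082 was at 1.32, 0.663 and 1.3 CPM in WT against 0.787, 1.23 and 0.651 CPM in Tg, with overlapping groups (log2 fold change -0.30, SE 0.62, not called). Row ENSDARG00000029432 had 0, 31 and 15 counts in WT and 632, 0 and 0 counts in Tg. Its level in Tg therefore lay in replicate 1 alone, at 11.8 CPM, and the fitted log2 fold change of 3.90 (SE 2.55, not called) turned to -6.91 without that pool. A value fitted with no count in the remaining Tg pools depends on the prior count and is no measure of size. The rule by which reads that fit both copies were counted is not known, so the split between the paired rows is uncertain.

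Tg replicate 1 also stood apart from the other Tg pools in genes of egg cells and in some genes of steroid synthesis. A list of 10 oocyte genes, added after the values had been seen, summed to 449 CPM in Tg replicate 1 and to 1.35 and 1.75 CPM in Tg replicates 2 and 3, and to 52.5, 186 and 58.5 CPM in WT. The zona pellucida gene zp3b was at 156 CPM in Tg replicate 1, against 0.364 and 0.267 CPM in the other Tg pools and 3.32 to 66.7 CPM in WT. The side-chain cleavage enzyme row CYP11A1 ENSDARG00000002347 was at 12.6 CPM in Tg replicate 1 and 0 in the other Tg pools. In WT it was at 0.472, 6.79 and 2.3 CPM. The steroid hydroxylase cyp17a1 was at 7.42 CPM in Tg replicate 1, against 0 and 0.25 CPM in the other Tg pools. Its WT pools were at 0.29, 2.37 and 0.503 CPM. The 15 rows of an interrenal list summed to 25.3 CPM in Tg replicate 1 and to 1.43 and 1.67 CPM in Tg replicates 2 and 3. In WT they summed to 2.87, 13.8 and 6.19 CPM. Not every row of that list went this way, and cyp21a2 was at 0.0375 CPM in Tg replicate 1 against 0.707 and 0.718 CPM in the other Tg pools. The part of these cells in the TPH1 row was not tested.

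Of the transporters, slc6a2 was lower in every Tg pool. It was at 67.3, 40.3 and 38.0 CPM in the WT pools and 4.74, 3.72 and 6.13 CPM in Tg. The lowest WT pool was thus far above the highest Tg pool, and of the called members its WT pools were the closest to each other. The means were 48.6 ± 16.3 and 4.86 ± 1.21 CPM (SD, n = 3 each), with a log2 fold change of -3.32 (SE 0.30). The vesicular transporter slc18a2 was at 1.09, 0.143 and 0.518 CPM in WT against 0, 0.303 and 0.401 CPM in Tg. Its groups overlapped (log2 fold change -1.30, SE 1.47, not called).

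Of breakdown, mao, the single monoamine oxidase gene of zebrafish, was called lower. It was at 431, 214 and 141 CPM in the WT pools and 34.8, 47.7 and 37.8 CPM in Tg. The Tg pools lay close together and all below the WT pools, of which replicate 1 was again the highest. The means were 262 ± 150 and 40.1 ± 6.74 CPM (SD, n = 3 each), with a log2 fold change of -2.71 (SE 0.41). Without WT replicate 1 it was -2.15 and mao was still called. When any other pool was left out, mao was not called. In all 3 Tg pools mao stayed well above the level of 3 counts.

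The calls on the members rested on most of the pools. Without WT replicate 1 all 3 members were called lower, without Tg replicate 1 only slc6a2 was, and without WT replicate 2, WT replicate 3, Tg replicate 2 or Tg replicate 3 none was called. In those 4 fits edgeR called at most 2 genes lower of all those tested, although 2839 to 3549 genes had an unadjusted p under 0.05. limma-voom called 1 member, slc6a2, lower.

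The levels of the called members were then set beside markers of chromaffin cells, of kidney tubules and of other cells that the marrow could hold. Each marker gene was put on a log2 scale relative to its own WT mean, and a list was described by its median in each pool. In bulk samples, fewer cells of a type and less RNA per cell cannot be told apart.

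Chromaffin markers were mostly scarce, and as a list they overlapped between the genotypes. Of the 25 rows, 13 were under 1 CPM in every pool, and the sum over the list was 21.6 to 31.6 CPM in WT and 24.6 to 29.0 CPM in Tg. phox2bb, a transcription factor that sympathetic and chromaffin cells need, was at 0, 0.412 and 0.701 CPM in WT against 0.0749, 0 and 0 CPM in Tg. The granule protein gene chga was at no more than 0.061 CPM in WT and 0.525 CPM in Tg, and npy had no count in any pool. Of 15 tested rows none was called in either direction by edgeR, and 1 had an unadjusted p under 0.05, against 19.8% of all tested genes. In 2 of the 15 (13.3%, against 14.1% of all tested genes) every WT pool lay above every Tg pool. They were the secretogranin genes scg3 and scg5 of secretory granules (named after their values had been seen). scg3 was at 1.17 to 1.81 CPM in WT and 0 to 0.364 CPM in Tg (log2 fold change -2.79, SE 1.25), and scg5 at 1.13 to 3.65 and 0.20 to 1.03 CPM (-1.72, SE 0.78). In 1 row, ret, every Tg pool lay above every WT pool, against 14% of all tested genes. The median log2 fold change of the list was -0.29. It was 0.03 without WT replicate 1, 0.04 without WT replicate 3, 0.12 without Tg replicate 2 and -1.07 with limma-voom, so the list had no stable direction. Of the list DESeq2 called 0 lower and 1 higher, the receptor tyrosine kinase ret, whose log2 fold change was 1.96 (SE 0.47) at an adjusted p of 0.102 by edgeR's quasi-likelihood test. The most abundant rows of the list, gata3, ret and pcsk2, are also used outside chromaffin cells. They made up much of the sums over the list, so the like sums do not show that the other rows were alike. The gata3 row was at 6.10, 10.3 and 7.09 CPM in WT against 7.23, 4.97 and 14.4 CPM in Tg. The prohormone convertase pcsk2 was at 8.73 CPM in WT replicate 1 and at 0.303 to 1.37 CPM in the other pools, and ret at 1.56 to 3.63 CPM in WT and 5.32 to 13.8 CPM in Tg. Interrenal markers were as scarce, with 11 of 15 rows under 1 CPM in every pool and star, the cholesterol carrier of steroid-making cells, at no more than 0.29 CPM. The most abundant of them were CYP11A1 ENSDARG00000002347 and cyp17a1, described above for Tg replicate 1, and nr0b1, a nuclear receptor at 0.617 to 2.69 CPM in WT against 2.27, 0 and 0 CPM in Tg. Their sum was 2.87 to 13.8 CPM in WT and 1.43 to 25.3 CPM in Tg, and 0 of 6 tested rows were called (0 with an unadjusted p under 0.05, and 0 lower by DESeq2).

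Tubule markers were abundant in all pools and lower in Tg in their median. The 31 proximal tubule rows summed to 6600, 2120 and 2310 CPM in WT and to 1540, 2060 and 1530 CPM in Tg. WT replicate 1 stood far above every other pool, and WT replicates 2 and 3 were close to Tg replicate 2. Of 31 tested rows, 30 had a negative log2 fold change, with a median of -1.12 that became -0.36 without WT replicate 1. In 13 of them (41.9%, against 14.1% of all tested genes) every WT pool lay above every Tg pool. An unadjusted p under 0.05 was found in 14 of the 31, against 19.8% of all tested genes. edgeR called 1 lower and DESeq2 9, against 0.363% and 5.03% of all genes that each tested. The called gene was the sulphate transporter slc13a1, at 113, 57.3 and 52.8 CPM in WT against 6.33, 7.44 and 6.13 CPM in Tg (log2 fold change -3.49, SE 0.33, adjusted p = 0.0198 by edgeR's quasi-likelihood test). The adjusted p of slc13a1 was 0.0517 to 0.114 without WT replicate 2, WT replicate 3, Tg replicate 2 or Tg replicate 3. The other genes of the list were not called by edgeR. The endocytic receptor lrp2a was at 430, 125 and 116 CPM in WT against 106, 142 and 84.0 CPM in Tg, and its groups overlapped (log2 fold change -1.02, SE 0.52, not called). The cadherin cdh17 was at 1230, 434 and 517 CPM in WT and at 292 to 396 CPM in Tg (log2 fold change -1.11, SE 0.39, not called). The phosphate transporter slc20a1a overlapped between the groups, at 222 to 995 CPM in WT and 288 to 397 CPM in Tg (-0.68, SE 0.50, not called). The organic cation transporter slc22a2, which also carries monoamines, was at 621, 269 and 152 CPM in WT against 109, 155 and 109 CPM in Tg (log2 fold change -1.48, SE 0.48, not called).

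Markers of the distal tubule and collecting duct separated the genotypes in more of their rows. Their sum was 785, 410 and 469 CPM in WT against 235, 210 and 212 CPM in Tg. In 8 of 10 tested rows (80%, against 14.1% of all tested genes) every WT pool lay above every Tg pool. An unadjusted p under 0.05 was found in 9 of the 10, against 19.8% of all tested genes. The median log2 fold change was -1.32, and -1.58 to -0.92 with each pool left out in turn. edgeR called 1 row lower and DESeq2 8, against 0.363% and 5.03% of all genes that each tested. The called gene was the thiazide-sensitive cotransporter slc12a3, at 271, 179 and 188 CPM in WT against 91.1, 67.5 and 70.2 CPM in Tg (log2 fold change -1.48, SE 0.20, adjusted p = 0.0418 by edgeR's quasi-likelihood test). The sodium-potassium-chloride cotransporter slc12a1 was at 64.0 to 125 CPM in WT and 32.7 to 37.1 CPM in Tg (log2 fold change -1.26, SE 0.27), and the anion exchanger slc4a2a at 82.1 to 239 and 57.7 to 65.5 CPM (-1.31, SE 0.36). edgeR called neither, although their groups did not overlap. The adjusted p of slc12a3 was 0.0504 to 0.185 when WT replicate 1, WT replicate 2, WT replicate 3, Tg replicate 2 or Tg replicate 3 was left out.

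**Figure D2:**
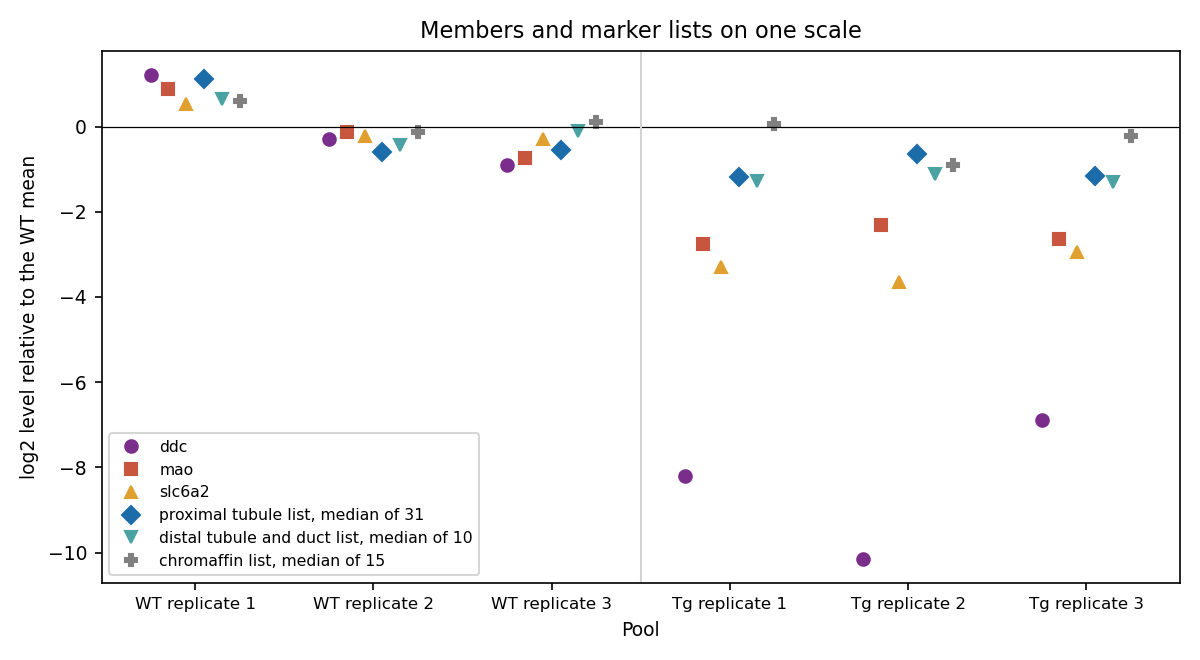
log2 level of ddc, mao and slc6a2, and of the median gene of the proximal tubule, distal tubule and duct, and chromaffin lists, in each pool relative to the WT mean, with 1 symbol per gene or list and pool. In the Tg pools the tubule lists lie between -0.65 and -1.3, mao between -2.30 and -2.75, slc6a2 between -2.94 and -3.65 and ddc between -6.89 and -10.1.

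In each Tg pool the called members lay lower, relative to the WT mean, than the medians of both tubule lists. The multiciliated cell and liver lists, described below, also had negative median log2 fold changes (-1.41 and -4.13). Relative to the WT mean, the proximal tubule median was at 1.11, -0.59 and -0.55 in WT and -1.18, -0.65 and -1.16 in Tg. That median was thus nearly as low in WT replicates 2 and 3 as in Tg replicate 2. mao stood at 0.87, -0.14 and -0.73 in WT and -2.75, -2.30 and -2.64 in Tg on the same scale. WT replicate 1 was the highest WT pool for this list and for ddc, mao and slc6a2. This was not particular to the proximal tubule list. The distal tubule (0.65), chromaffin (0.59), podocyte (0.55) and multiciliated cell (0.30) medians were also highest among WT pools there. The interrenal (-0.50), liver (-1.60), endothelial (-0.58) and macrophage (-0.27) medians were not. The difference of a member from the proximal tubule median, taken within each pool, was lower in Tg than in WT by 7.42 for ddc, 1.58 for mao and 2.31 for slc6a2 (log2 scale, groups not overlapping in any of these). Against the distal tubule median the differences were 7.14, 1.3 and 2.03 in the same order, also without overlap. Against the chromaffin median, Tg minus WT was -7.86 for ddc, -2.02 for mao and -2.75 for slc6a2, also without overlap. Against the interrenal median it was -7.21, -1.37 and -2.10 in the same order, with overlap for mao and slc6a2. The same differences were not taken for genes outside the members. Because the members were chosen on their own levels, these differences describe them, and no p-value is read from them. With 3 pools against 3, an exact permutation test can give no p under 0.1.

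The difference of a member from the proximal tubule median was also taken with each pool left out in turn. Since this contrast chose the members, such a check cannot show whether the difference is unusual. Without WT replicate 1 or any other pool, the difference from the proximal tubule median stayed between -8.26 and -6.38 for ddc, between -1.70 and -1.36 for mao and between -2.61 and -1.96 for slc6a2.

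A list median does not speak for each of its genes. The log2 fold change of slc13a1, -3.49, was lower than those of mao and slc6a2 and not as low as that of ddc.

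**Figure D3:**
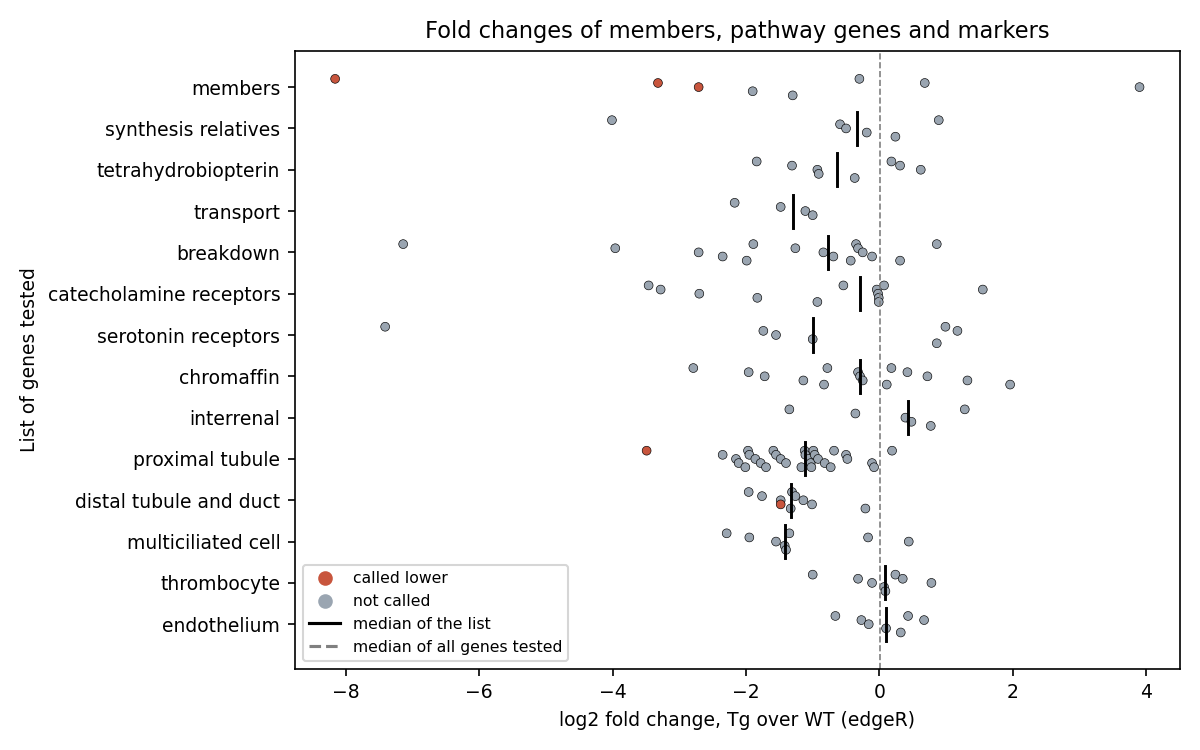
Fitted log2 fold change of Tg against WT for every tested gene of the lists drawn, with 1 point per gene (red where called lower). Each list has a bar at its median, and the members are in the top row without a median. Some lists, among them liver (median -4.13), podocyte and macrophage, are not drawn. The medians are -1.12 for the proximal tubule, -1.32 for the distal tubule and duct and -0.29 for the chromaffin list, and the fold changes of genes with no count in Tg depend on the prior count.

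Other cell types were checked in the same way. Liver markers were uneven between the pools, with sums of 35.1, 85.5 and 966 CPM in WT against 63.3, 37.1 and 29.2 CPM in Tg. Liver RNA was thus highest in WT replicate 3, the pool in which ddc and mao were lowest among the WT pools. fabp10a, the liver fatty acid binding protein, was at 2.1, 11.5 and 45.9 CPM in WT against 5.30, 5.82 and 3.82 CPM in Tg (not called). The plasma protein genes tfa, cp and apoa2 were also at their highest in WT replicate 3, at 314, 93.7 and 135 CPM. In Tg apoa2 was at no more than 0.584 CPM, tfa at 3.37 to 28.3 CPM and cp at 2.25 to 20.4 CPM. Of 11 tested liver rows none was called by edgeR, and 5 had an unadjusted p under 0.05, against 19.8% of all tested genes. DESeq2 called 1 lower, against 5.03% of all genes that it tested. In 2 of the 11 (18.2%, against 14.1% of all tested genes) every WT pool lay above every Tg pool. In 10 of the 11 the log2 fold change was negative, at a median of -4.13, lower than that of any other list here. That of apoa2 was -7.64 (SE 1.32, adjusted p = 0.0663 by edgeR's quasi-likelihood test). The difference of a member from the liver median within each pool overlapped between the genotypes for mao (Tg minus WT -0.39 on the log2 scale) and slc6a2 (-1.13), and did not for ddc (-6.24). Of 8 tested rows of multiciliated cells, a cell type that lines zebrafish nephrons, edgeR called 0, at a median log2 fold change of -1.41. An unadjusted p under 0.05 was found in 6 of the 8, against 19.8% of all tested genes. DESeq2 called 5 lower, against 5.03% of all genes that it tested. In 5 of the 8 (62.5%, against 14.1% of all tested genes) every WT pool lay above every Tg pool. The podocyte median was 0.19, the thrombocyte median 0.08, the endothelial median 0.10 and the macrophage median -0.40. In mammals platelets take up serotonin. The integrin gene itga2b of the thrombocyte list was at 41.6, 34.6 and 47.2 CPM in WT against 51.5, 65.4 and 94.5 CPM in Tg (log2 fold change 0.78, SE 0.24, not called). The called genes of these lists were higher in Tg. KIT, of mast cells and of blood progenitors, had a log2 fold change of 1.1 (SE 0.16, adjusted p = 0.0448 by edgeR's quasi-likelihood test). The ANPEP row of the intestine list, an aminopeptidase also found on myeloid cells, had 3.71 (SE 0.34, adjusted p = 0.0198 by the same test). With any 1 pool left out, the adjusted p of KIT was 0.06 to 0.18 by that test. That of ANPEP was 0.0517 to 0.102 without WT replicate 2, WT replicate 3, Tg replicate 2 or Tg replicate 3. The part of any of these cell types in the members' levels was not tested.

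The rest of the pathway was taken from 6 lists of other genes of amine synthesis, cofactor supply, transport, breakdown and receptors, 88 rows in all. Of the 53 tested, none was called in either direction by edgeR, and 20 had an unadjusted p under 0.05 (19.8% of all tested genes did). DESeq2 called 12 lower, against 5.03% of all genes that it tested. In 41 of the 53 the log2 fold change was negative, at a median of -0.69, and in 21 (39.6%, against 14.1% of all tested genes) every WT pool lay above every Tg pool. The genes of these lists named below, apart from hdc, were chosen after their values had been seen.

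In synthesis, the second tyrosine hydroxylase th2 was at 0.356 CPM or less in every pool. The neuronal tryptophan hydroxylase tph2 was at 1.25, 1.34 and 1.45 CPM in WT against 2.83, 0.424 and 1.52 CPM in Tg, with overlap. The dbh relative moxd1 was at 141, 196 and 131 CPM in WT against 158, 90.8 and 82.8 CPM in Tg. None of these was called, and the synthesis relatives had a median log2 fold change of -0.34 over 6 tested rows. The melatonin-forming asmt2 was at 2.70, 14.2 and 1.80 CPM in WT against 0.955, 0 and 0.20 CPM in Tg, and DESeq2 called it lower.

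Tetrahydrobiopterin is the cofactor of the tyrosine, tryptophan and phenylalanine hydroxylases. gch1, which starts its synthesis, was at no more than 1.60 CPM in any pool. The most abundant row named QDPR, taken for qdpra, which recycles the cofactor, differed by a log2 fold change of 0.18 (SE 0.19). The phenylalanine hydroxylase pah, which makes tyrosine, was at 185, 61.8 and 55.6 CPM in WT against 21.7, 32.2 and 30.3 CPM in Tg. Its groups did not overlap (log2 fold change -1.84, SE 0.48, adjusted p = 0.115 by edgeR's quasi-likelihood test), and DESeq2 called it lower. The 8 tested rows of this list had a median log2 fold change of -0.64.

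Of the other transporters, 4 of 10 rows were tested, and all 4 had negative log2 fold changes, with a median of -1.29. Among them was slc22a2, which is also in the proximal tubule list and is described there, so the lists are not separate. The serotonin transporter slc6a4a, also a thrombocyte marker here, was at 15.0, 8.43 and 14.2 CPM in WT against 7.83, 4.77 and 6.21 CPM in Tg (log2 fold change -1.0, SE 0.31). The low-affinity amine carrier slc22a3 was at 12.2, 6.20 and 4.25 CPM in WT against 0.937, 2.06 and 2.04 CPM in Tg (log2 fold change -2.17, SE 0.52). Neither was called by edgeR, and DESeq2 called both lower. The dopamine transporter slc6a3 and the vesicular transporter slc18a1 had too few counts to test, at no more than 0.215 CPM.

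Of the genes of breakdown, 16 of 17 rows were tested, with a median log2 fold change of -0.77, and DESeq2 called 4 lower. The tryptophan dioxygenase tdo2b, which draws tryptophan away from serotonin, was at 49.1, 17 and 4.27 CPM in WT against 4.83, 5.42 and 3.54 CPM in Tg, with overlap. ido1, which opens the same ring, was at 20.2, 8.52 and 7.10 CPM in WT against 1.39, 6.24 and 2.07 CPM in Tg without overlap. The histidine decarboxylase hdc, a relative of ddc that makes histamine in mast cells and basophils, was at 0.381, 0.843 and 0.731 CPM in WT against 0.356, 1.48 and 1.72 CPM in Tg (log2 fold change 0.86, SE 0.78, not called).

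Receptors of both amines were mostly scarce. Of 25 catecholamine receptor rows 12 were tested, with a median log2 fold change of -0.29, and of 19 serotonin receptor rows 7 were, with a median of -1.0. The dopamine receptor drd3 was at 3.99, 2.35 and 2.58 CPM in WT against 0.244, 0.566 and 0 CPM in Tg, and DESeq2 called it lower. The serotonin receptor htr7a was at 0.181 to 0.663 CPM in WT and had no count in Tg. In the other direction, every Tg pool lay above every WT pool for the serotonin receptor htr6, at 0.562, 1.15 and 1.33 CPM in WT against 1.52, 2.63 and 1.9 CPM in Tg (log2 fold change 0.99, SE 0.55, not called).

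Finally, the genes whose levels over the 6 pools were most like those of a member were listed, by the root mean square (RMS) difference of centred log2 CPM among 16163 genes that had a symbol and averaged 1 CPM or more. The nearest to slc6a2 were zgc:64106 (RMS difference 0.15), the proximal tubule gene slc13a1 (0.31) and RNF150 (0.36). For mao they were RAP1GAP (0.10), mfsd2al1 (0.18) and prph2la (0.19). By this measure ddc had no neighbour as close as those of mao and slc6a2, with 0.80 for zgc:158427, 0.81 for si:ch211-261i17.2 and 1.09 for LMOD2. Like ddc, zgc:158427 was high in WT (563, 352 and 240 CPM) and near the foot of the scale in Tg (0.506, 0.0808 and 1.34 CPM). At such levels small counts move the log2 value far. si:ch211-261i17.2 and LMOD2 had Tg pools with no count, where the log2 level depends on the prior count. TPH1 row ENSDARG00000029432 was nearest to SNAPC1 (0.63), senp6b (0.65) and slc2a15b (1.03). These distances describe the 6 pools and were not tested.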

How the data were processed

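The authors purified poly(A) RNA, made strand-marked (dUTP) libraries and sequenced paired ends. The submitters' processing notes name cutadapt 1.9, HISAT2 2.0.4, StringTie 1.3.4d, DESeq2 and edgeR, and the genome build GRCz11. The file that the authors deposited holds raw, unscaled counts, 1 whole number for each gene in each library. How the counting was done, and whether it used strand, is not given in the sources read. Nothing states that the pools of a genotype were reared or collected apart, so p-values measure only the spread between these pools.

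Genes with low counts were dropped with filterByExpr in edgeR 4.0.16 (R 4.3.3), libraries were scaled by TMM, and Tg was compared with WT by the quasi-likelihood test with Benjamini-Hochberg adjustment over 20123 genes. CPM are TMM-scaled and are not corrected for length, so no ratio of levels between genes is given. They served across genes only to pick abundant rows and to sum lists. DESeq2 1.42.0, limma-voom (limma 3.58.1), other scalings and filters, a replicate block and leaving out each pool served as alternatives. Log2 levels of the lists used a prior count of 0.5.

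The members, lists and tests were chosen with earlier results of these data known. A gene was matched by its own symbol in a name table that covers 28988 of 32057 IDs, and failing that by the symbol of the human gene of that stem. Where several rows share a symbol, as many of the most abundant rows were taken as genes were listed. The rows called qdpra, slc20a1a, slc4a2a and scg5 here were taken so, and the name table does not tell which copy each is. Member rows were left out of the lists. Named were the members described, every called gene of a list, the 3 most abundant genes of the chromaffin, interrenal, tubule and liver lists, set defining markers and the nearest 3 genes to each tested member with a mean of at least 1 CPM. Other names were chosen after their values were seen. Sequences and coordinates were not used here. The list held 10 genes, of which 9 are described, and some other results are not reported here.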

Additional observations from a re-analysis of the deposited data

How the results depend on the processing

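DESeq2 called 1122 genes lower and 279 higher, and limma-voom 25 and 23. Of the members limma-voom called 1 lower, of the other pathway genes DESeq2 called 12 lower, of the proximal tubule markers 9 and of the distal markers 8. With no filter on low counts, 2 proximal tubule markers were called. The median log2 fold change of the chromaffin list was -1.07 with limma-voom and -0.61 to 0.12 with each pool left out in turn. TPH1 row ENSDARG00000029432 turned to -0.19 with limma-voom, to -2.34 with the replicate block and to -6.91 without Tg replicate 1. Replicate numbers stand in both genotypes. The deviations of pools with the same number from their genotype means had correlations of -0.0888, -0.103 and 0.0891. With 3 pools per genotype, centred within genotype, such values cannot show whether pools with the same number share a batch. With the replicate block edgeR called 1 gene lower and 0 higher (3481 genes at an unadjusted p under 0.05), 0 members, 0 proximal tubule and 0 distal markers, and the chromaffin median was -0.94.

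With each pool left out in turn, calls over all genes were 0 to 60 lower and 0 to 28 higher, calls of members 0 to 3 lower, and those of the proximal and of the distal tubule list 0 to 1 each. The log2 fold change was -9.15 to -7.30 for ddc, -3.03 to -2.15 for mao, -3.52 to -3.01 for slc6a2 and -6.91 to 5.05 for the TPH1 row. The cause of these shifts was not tested. th had 0 to 39 counts per pool, and its log2 fold change of 0.68 had an SE of 1.43.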
